A study of Mus musculus with 4 samples.

Results

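Described here are 37 genes whose level was at least 2-fold higher both in STAT3-deficient and in STAT5-deficient mouse CD4+ T cells than in the wild-type cells of the same pair. They were chosen from the measured values, out of 12440 genes compared. A gene qualified where both differences of log2 values were at least 1 and the highest of its 4 values exceeded 6.20, the median of all values on the arrays. In all, 47 genes met those conditions. Another 10 of them (Ccn1, Gata3, Gbp6, Gzmb, Il18rap, Mndal, Nkg7, Tbx21, Tnfrsf13c and Tnfsf11) were left out by name, so the 37 are not the complete overlap. Because both differences chose the members, those differences are a description and support nothing by themselves.

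The cells were naive CD4+ T cells of C57BL/6J mice with the OT2 T cell receptor transgene, sorted from spleen and lymph nodes as CD44-negative and CD62L-positive. They were kept for 72 h on antibodies to CD3 and CD28 with TGF-beta at 2 ng/ml, IL-6 at 20 ng/ml and an antibody to IL-4, conditions that favour the Th17 fate. STAT3-deficient cells (CD4-Cre stat3 fl/fl OT2) and STAT3 wild-type cells (stat3 fl/fl OT2, no Cre) also received an antibody to IL-2 at 10 ug/ml. STAT5-deficient cells (CD4-Cre stat5 fl/fl OT2) and STAT5 wild-type cells (stat5 fl/fl OT2, no Cre) received IL-2 at 100 IU/ml instead. The pairs thus differ in IL-2 supply as well as in the deleted gene, and these cannot be told apart between pairs. All 4 groups carry floxed alleles, and Cre is driven by the Cd4 promoter, which acts from thymic development onwards. In both pairs only the deficient cells carry Cre. Loss of the STAT gene and presence of Cre therefore cannot be told apart within either pair. The genotype label of both deficient samples ends in the words for wild type, against the title, and the titles were followed.

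There was 1 Affymetrix mouse expression array per group, so differences carry no standard error and no p-value, and precision is limited by having 4 arrays. Levels are on the log2 scale as deposited, on which a difference of 1 is 2-fold. The values did not show base 2 between levels 4 and 5. Stat3 stood at 9.93 in STAT3-deficient and 12.87 in STAT3 wild-type cells, Stat5a at 5.91 in STAT5-deficient and 10.92 in STAT5 wild-type cells, and Stat5b at 6.09 and 11.33 on those arrays. The 5 measured CD4 T cell markers (Cd3e, Cd3g, Cd4, Cd5 and Cd28) lay between 10.88 and 13.13 on all 4 arrays. The median gene differed by -0.20 in the STAT3 pair and by 0.06 in the STAT5 pair.

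STAT3 and STAT5 are transcription factors held in the cytoplasm until a cytokine receptor is engaged. IL-6 and IL-21 act mainly through STAT3, which is needed for Th17 differentiation, whereas IL-2 acts mainly through STAT5, which opposes that fate and favours regulatory T cells. Both proteins bind closely related palindromic DNA elements, and at the Il17a locus they compete for the same sites with opposite results.

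RefSeq promoter windows (GRCm38.p6), which run from 250 bases before to 50 bases after a gene start, were available for 29 of the 37 genes, 39 windows in all. They were searched for the STAT element TTCNNNGAA and for a longer form with 4 in place of 3 free bases between the same ends, N being any base. Each pattern reads the same on both strands, so a match counts for both, and the patterns were counted separately. At least 1 match was present for 3 of the 29 genes (10.3%), namely Cd96, Dclk1 and Dhrs3, against 13.8% of the 10073 compared genes with a window. Per window the share was 10.3% for the members, 11.6% for the compared genes and 14.6% for all 32851 windows. By pattern, TTCNNNGAA was present for 1 of the 29 genes (3.45%), Cd96, against 8.17% of the compared genes. The longer form was present for 3 of the 29 (10.3%), against 6.51%, and Dclk1 and Dhrs3 hold this form only. The patterns thus differed in opposite directions. With so few members holding a match, these shares cannot decide whether either pattern is rarer or more frequent in the members. A match is not a binding site, and its lack in so short a window says nothing about more distant sites.

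The 250 bases before the start are printed, 5′ to 3′ on the gene's strand, for both members whose match lies before their first listed start, with the matches in capitals. The windows of Lad1, with the largest STAT3 difference, and Serpinb9, with the largest smaller difference, are shown for contrast and hold no match. Cd96 lies on the minus strand at chr16:46120249-46120498 and holds both patterns, the first of them TTCAGAGAA, which begins 79 bases before the start. Dclk1 lies on the plus strand at chr3:55242114-55242363, and its match TTCCTGGGAA begins 237 bases before the start. Lad1 (chr1:135818348-135818597) and Serpinb9 (chr13:33004291-33004540) lie on the plus strand.
Cd96: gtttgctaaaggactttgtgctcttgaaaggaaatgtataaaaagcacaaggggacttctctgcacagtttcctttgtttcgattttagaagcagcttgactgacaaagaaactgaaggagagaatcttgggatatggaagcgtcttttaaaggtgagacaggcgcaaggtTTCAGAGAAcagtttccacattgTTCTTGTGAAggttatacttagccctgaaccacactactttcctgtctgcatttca
Dclk1: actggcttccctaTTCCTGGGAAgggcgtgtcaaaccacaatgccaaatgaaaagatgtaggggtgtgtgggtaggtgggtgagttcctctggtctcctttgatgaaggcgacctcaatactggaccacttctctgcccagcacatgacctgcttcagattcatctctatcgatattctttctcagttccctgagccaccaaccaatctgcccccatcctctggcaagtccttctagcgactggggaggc
Lad1: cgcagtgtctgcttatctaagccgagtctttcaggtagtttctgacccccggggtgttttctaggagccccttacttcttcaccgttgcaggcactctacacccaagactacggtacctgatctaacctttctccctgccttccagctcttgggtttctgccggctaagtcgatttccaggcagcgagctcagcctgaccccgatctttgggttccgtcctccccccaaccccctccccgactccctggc
Serpinb9: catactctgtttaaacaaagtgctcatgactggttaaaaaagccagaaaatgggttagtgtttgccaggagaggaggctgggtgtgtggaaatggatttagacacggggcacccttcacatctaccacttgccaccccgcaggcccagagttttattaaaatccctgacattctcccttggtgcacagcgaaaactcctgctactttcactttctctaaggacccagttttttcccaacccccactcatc

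Over the 37 members the difference without STAT3 ranged from 1.08 to 5.86 with a median of 1.95. Without STAT5 it ranged from 1.02 to 3.12 with a median of 1.41. Among all genes compared, 354 (2.85%) were at least 2-fold higher without STAT3, 231 (1.86%) without STAT5 and 47 (0.378%) in both. The 47 genes made up 13.3% of the first list and 20.3% of the second. Both differences were at least 1.5 for 16 members and at least 2 for 5 members: Serpinb9, Cd70, Dhrs3, Vcam1 and Samd9l. The difference was larger in the STAT3 pair for 26 members and larger in the STAT5 pair for 11. Over all genes compared, the difference, taken with its sign, was larger in the STAT3 pair for 3659 and in the STAT5 pair for 8781.

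**Figure D1:**
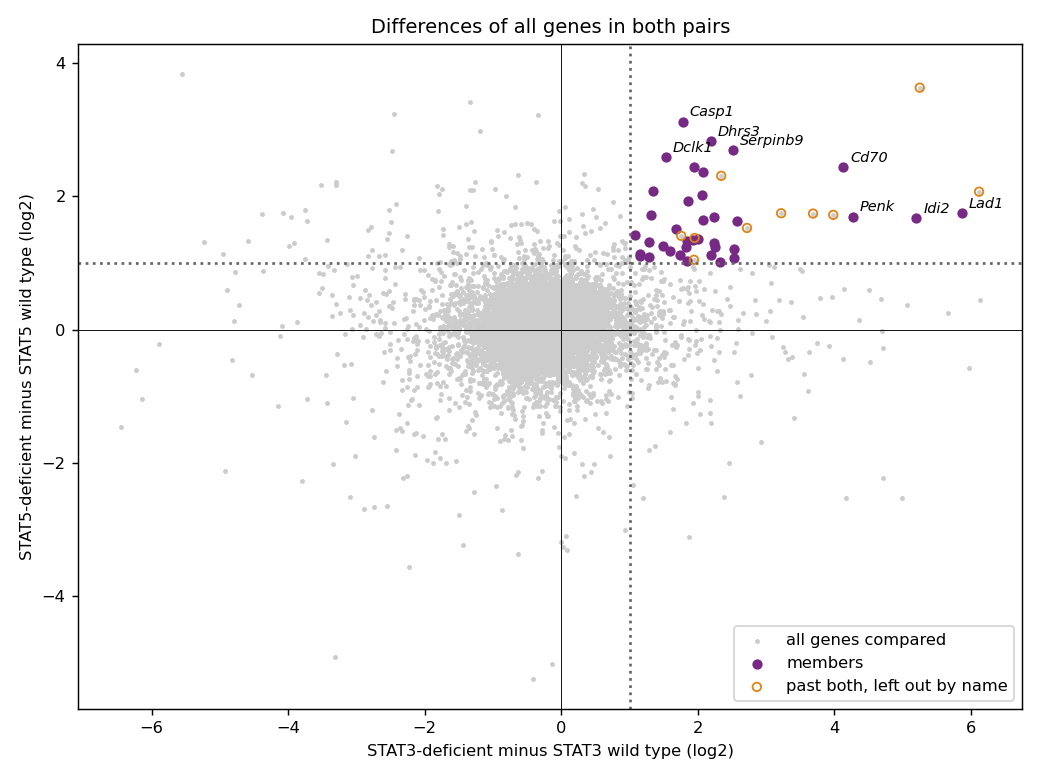
Differences between deficient and wild-type arrays (log2) for all 12440 genes compared, with the STAT3 pair on the x axis and the STAT5 pair on the y axis. Purple points are the 37 members, open orange circles the 10 genes left out by name, and dotted lines mark 2-fold. The members' median is 1.95 on the x axis and 1.41 on the y axis.

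At the edge of the threshold, the last members inside were Nrn1 (2.32 without STAT3, 1.02 without STAT5), Ifi209 (1.85 and 1.03) and Mpzl2 (2.54 and 1.07). Just outside lay Spin4 (0.99 and 1.10), Zdhhc15 (0.98 and 1.06) and Crabp2, a retinoic acid carrier (0.98 and 1.05). Unc45b met both differences but stayed under the level filter. The values give no gap between members and non-members, so the membership of genes near the threshold is arbitrary. Centring the arrays, on their medians or by loess, ended the membership of Nrn1 and Ifi209.

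Both wild-type arrays lay under 6.20 for 13 members (35.1%, against 2.97% of all genes compared), 1 of them did for 8, and both lay above for 16 (43.2%, against 87.2%). On the deficient arrays, 37 members exceeded 6.20 without STAT3 and 34 without STAT5, against 88.2% and 91.3% of all genes. A deficient array alone could meet the level filter, so these shares follow in part from the rule. Values under 6.20 may be background signal, and 6.20 is called the background level here. Therefore the size of a difference with such a value on its lower side is uncertain. When values under that level were raised to it, 24 of the 37 still had both differences at 1 or more. In whole cultures, more cells of a type and more RNA per cell cannot be told apart.

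**Figure D2:**
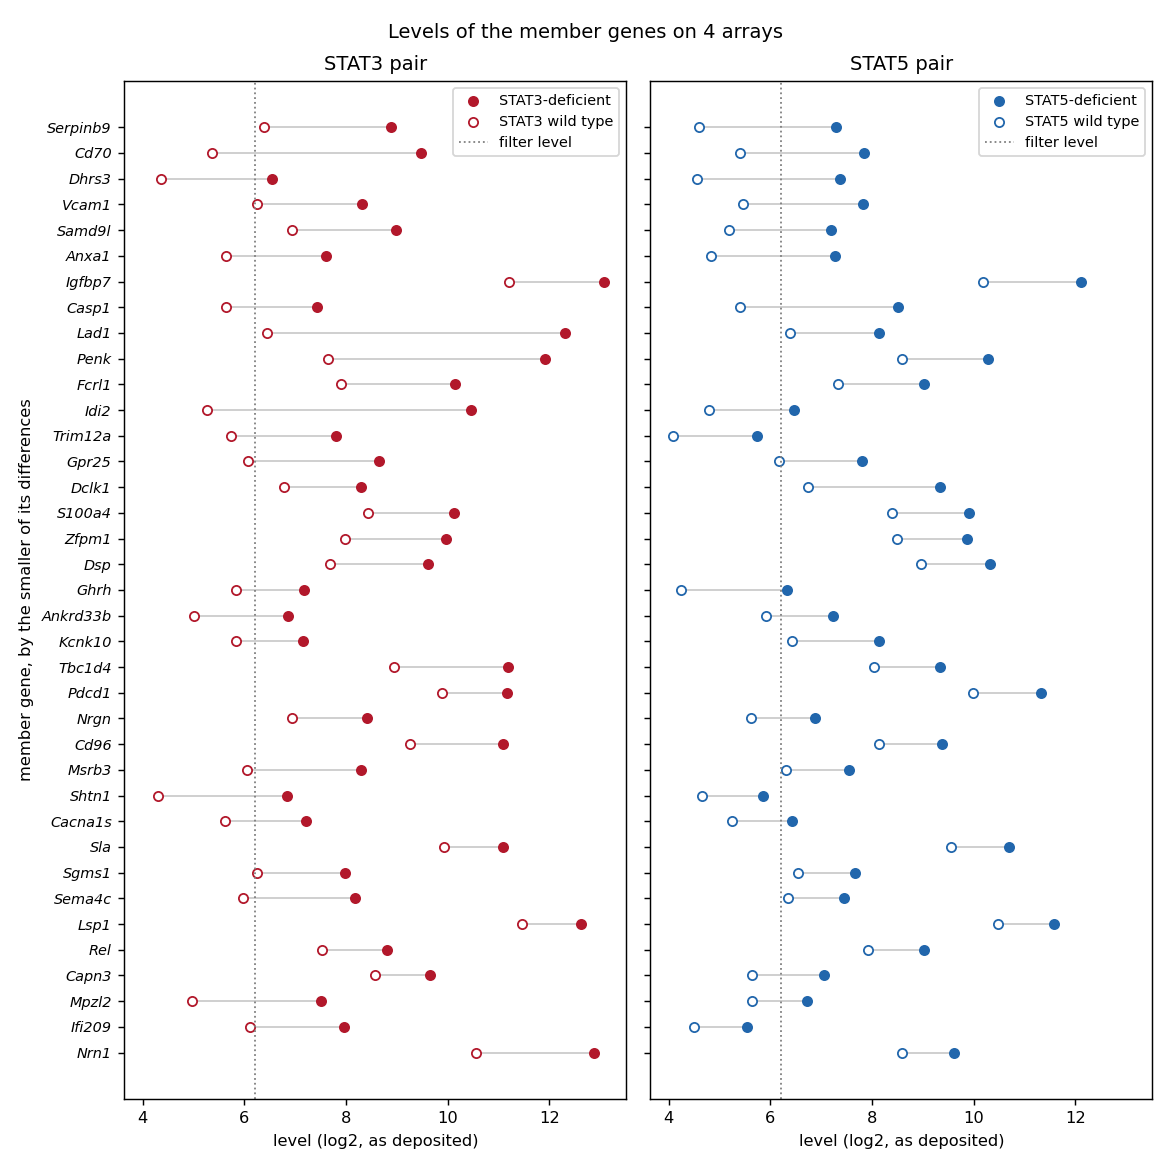
Levels of the 37 members (log2, as deposited) in the STAT3 pair (left panel) and STAT5 pair (right panel), 1 array per group. Filled points are deficient cells, open points their wild types, and the dotted line is the filter level of 6.20. Wild-type points lie at or left of that line for many members, with Igfbp7, Lsp1, Sla and Pdcd1 among those well to its right.

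Surface receptors and ligands of lymphocytes made up 5 of the members, by roles assigned after the values were seen. Cd70, the ligand through which the costimulatory receptor CD27 is engaged, stood at 9.48 in STAT3-deficient and 5.36 in STAT3 wild-type cells. In the other pair it was at 7.83 in STAT5-deficient and 5.39 in STAT5 wild-type cells, differences of 4.12 and 2.44. Both wild types were thus under the background level and close to each other, and both deficient arrays were clearly above it.

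Pdcd1, which encodes the inhibitory receptor PD-1, was already well expressed in the wild types. It was at 11.17 in STAT3-deficient against 9.89 in STAT3 wild-type cells, and at 11.31 in STAT5-deficient against 9.99 in STAT5 wild-type cells. The differences of 1.28 and 1.32, or 2.43-fold and 2.50-fold, were close in size, and the wild types differed by only 0.10. Cd96, a receptor of T and NK cells for the poliovirus receptor CD155, stood at 11.09 in STAT3-deficient and 9.26 in STAT3 wild-type cells. It was at 9.38 in STAT5-deficient and 8.14 in STAT5 wild-type cells. Each deficient array was above its own control, but the STAT5-deficient value exceeded the STAT3 wild-type value by only 0.13.

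Fcrl1, an Fc receptor-like protein known from B cells, was at 10.14 in STAT3-deficient and 7.90 in STAT3 wild-type cells. In STAT5-deficient cells it was at 9.01, against 7.33 in STAT5 wild-type cells. The 4 measured B cell markers (Cd79a, Cd79b, Ms4a1 and Pax5) lay between 5.27 and 6.10 in STAT3-deficient and between 5.10 and 6.66 in STAT3 wild-type cells. They lay between 5.43 and 6.67 in STAT5-deficient and between 4.88 and 6.44 in STAT5 wild-type cells, and 0 of them differed by 2-fold in either pair. Gpr25, a G protein-coupled receptor of lymphocytes, was at 8.64 in STAT3-deficient against 6.07 in STAT3 wild-type cells. It was at 7.80 in STAT5-deficient against 6.17 in STAT5 wild-type cells, so its wild types lay just under the background level.

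Lists of related genes were counted in the same way, against a background of 7.23% of all genes at least 2-fold lower without STAT3 and 1.74% without STAT5. Of the 11 genes compared on a list of costimulatory and coinhibitory receptors, 3 were higher and 1 lower without STAT3, and 2 were higher and 0 lower without STAT5. Pdcd1 and Cd96 were the 2 in both. The list's median difference was 0.30 without STAT3 and 0.24 without STAT5. Of 12 follicular helper genes, 5 were higher and 3 lower without STAT3 and 5 higher and 0 lower without STAT5, with medians of 0.79 and 0.71, and Pdcd1 alone passed in both pairs.

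The genes of inflammation, interferon responses and cell death numbered 6, and 4 of them had both wild types under the background level. Serpinb9, the intracellular inhibitor that protects cells from granzyme B, had the highest smaller difference of all members. It stood at 8.88 in STAT3-deficient and 6.38 in STAT3 wild-type cells, and at 7.30 in STAT5-deficient and 4.60 in STAT5 wild-type cells. The differences of 2.51 and 2.70 were similar, although the whole STAT5 pair sat lower than the STAT3 pair.

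Casp1, the protease of inflammasomes, had the largest STAT5 difference among the members, at 3.12. It was at 8.51 in STAT5-deficient against 5.39 in STAT5 wild-type cells, and at 7.42 in STAT3-deficient against 5.64 in STAT3 wild-type cells. It is 1 of 2 members, with Dclk1, whose STAT5 difference exceeded the STAT3 difference by 1 or more. Anxa1, a phospholipid-binding protein with anti-inflammatory action, was at 7.60 in STAT3-deficient and 5.64 in STAT3 wild-type cells. It was at 7.28 in STAT5-deficient and 4.84 in STAT5 wild-type cells.

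Samd9l, an interferon-inducible gene that restrains growth of blood cells, stood at 8.99 in STAT3-deficient and 6.93 in STAT3 wild-type cells. The STAT5 pair was lower, at 7.19 in STAT5-deficient and 5.17 in STAT5 wild-type cells, with nearly the same difference (2.06 and 2.02). Trim12a, a rodent member of the TRIM family of antiviral proteins, was at 7.81 in STAT3-deficient and 5.73 in STAT3 wild-type cells. In STAT5-deficient cells it was at 5.73 and in STAT5 wild-type cells at 4.09, so both values of that pair lay under the background level. Ifi209, of the interferon-inducible Ifi200 family of DNA sensors, had the same pattern. It was at 7.96 in STAT3-deficient against 6.11 in STAT3 wild-type cells, and at 5.53 in STAT5-deficient against 4.50 in STAT5 wild-type cells.

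Of 24 genes compared on a list of interferon-induced genes, 10 were higher and 0 lower without STAT3, whereas 0 were higher and 1 lower without STAT5. Their median differences were 0.76 and -0.02, and 0 of the members were on that list. The list was written without Samd9l, Ifi209 and Trim12a, so that 0 does not mean that the members lack interferon-inducible genes. On the cytotoxic list, 5 of 12 genes were higher and 3 lower without STAT3, and 4 were higher and 1 lower without STAT5 (medians -0.37 and 0.36). The 3 higher in both were Serpinb9 and, of those left out by name, Gzmb and Nkg7. NK cell markers (Ncr1, Klra8 and Klre1) lay between 3.03 and 5.41 in STAT3-deficient, 3.21 and 6.32 in STAT3 wild-type, 4.31 and 6.43 in STAT5-deficient, and 3.87 and 6.81 in STAT5 wild-type cells.

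Proteins of adhesion, cell junctions and the extracellular space made up 6 members. Vcam1, the adhesion molecule bound by the integrin VLA-4, stood at 8.32 in STAT3-deficient and 6.25 in STAT3 wild-type cells. It was at 7.83 in STAT5-deficient and 5.46 in STAT5 wild-type cells. On the adhesion and integrin list of 13 compared genes, 4 were higher without STAT3 and 1 without STAT5, with 0 lower in either pair, and Vcam1 was the 1 in both.

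Lad1, ladinin, a protein of epithelial anchoring filaments, had the largest STAT3 difference of the members at 5.86, or 58.2-fold. It was at 12.31 in STAT3-deficient against 6.44 in STAT3 wild-type cells, and at 8.14 in STAT5-deficient against 6.39 in STAT5 wild-type cells. The wild types were 0.05 apart, while the STAT5-deficient array stood 4.17 below the STAT3-deficient array. Dsp, desmoplakin, which links desmosomes to intermediate filaments, was the 1 member at least 2-fold higher in STAT5 wild-type than in STAT3 wild-type cells (1.28). Its differences were 1.93 without STAT3 and 1.35 without STAT5.

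Igfbp7, a secreted binding protein of insulin-like growth factors, had the highest levels of all members on the deficient arrays. It was at 13.07 in STAT3-deficient against 11.21 in STAT3 wild-type cells, and at 12.10 in STAT5-deficient against 10.18 in STAT5 wild-type cells. All 4 levels were well above the background level, and the differences were 1.85 and 1.93. The further probe sets of Igfbp7 gave smaller values, at 0.99 and 1.08 and at -0.39 and 0.39, and with its probe sets averaged the differences were 0.82 and 1.13, which ends its membership. Mpzl2, an immunoglobulin-type adhesion protein, was at 7.51 in STAT3-deficient and 4.97 in STAT3 wild-type cells, and at 6.72 in STAT5-deficient and 5.64 in STAT5 wild-type cells. Sema4c, a membrane semaphorin, differed by 2.19 and 1.11.

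Genes grouped here as best known from neurons or muscle numbered 9. The roles were assigned after the values were seen. Such genes were not counted among all genes compared, so nothing is read from the size of the group. Penk, which encodes the precursor of the enkephalin opioid peptides, was at 11.92 in STAT3-deficient and 7.65 in STAT3 wild-type cells. It was at 10.29 in STAT5-deficient and 8.59 in STAT5 wild-type cells, and all 4 values exceeded the background level. Nrn1, neuritin, was at 12.87 in STAT3-deficient against 10.55 in STAT3 wild-type cells. In STAT5-deficient cells it was at 9.60, against 8.58 in STAT5 wild-type cells, so the STAT5-deficient value lay 0.95 below the STAT3 wild-type value.

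Dclk1, a kinase that binds microtubules, was at 9.33 in STAT5-deficient and 6.74 in STAT5 wild-type cells. It was at 8.30 in STAT3-deficient and 6.77 in STAT3 wild-type cells. Ghrh, the growth hormone-releasing hormone, differed by 1.34 without STAT3 and 2.08 without STAT5. Kcnk10, a potassium leak channel, differed by 1.31 and 1.72, and Cacna1s, the calcium channel subunit of skeletal muscle, by 1.60 and 1.18. Nrgn, the calmodulin-binding protein neurogranin, differed by 1.48 and 1.26, and Shtn1, an axon outgrowth protein, by 2.53 and 1.21. Both wild types lay under the background level for Ghrh, Cacna1s and Shtn1. Shtn1 was at 5.86 in STAT5-deficient and 4.65 in STAT5 wild-type cells, so both values of that pair lay under it, as for Trim12a and Ifi209, and its STAT5 difference is uncertain. Capn3, a calpain of skeletal muscle, differed by 1.08 and 1.41.

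Signalling and transcription genes numbered 6, the group with every level above 6.20 on all 4 arrays and with the smallest STAT5 median (1.22) of the groups with several members. In each of the 6 the STAT3 difference was the larger, as it was for 26 of all 37 members. Rel, the NF-kappaB subunit c-Rel, was at 8.81 in STAT3-deficient against 7.52 in STAT3 wild-type cells, and at 9.01 in STAT5-deficient against 7.92 in STAT5 wild-type cells. Zfpm1, which encodes FOG-1, a cofactor of GATA proteins, differed by 2.00 and 1.37. Gata3 itself, left out by name, differed by 3.22 and 1.75.

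Sla, an adaptor that dampens T cell receptor signalling, differed by 1.15 and 1.14 and was among the members with the smallest differences. Tbc1d4, a GTPase-activating protein in glucose transporter traffic, differed by 2.24 and 1.30. Lsp1, an actin-binding protein of leukocytes, differed by 1.15 and 1.11. S100a4, a calcium-binding protein of motile cells, differed by 1.68 and 1.51, with its wild types 0.04 apart.

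The 4 members grouped here as enzymes had both deficient arrays at least 2-fold above both wild types. That trait was shared by 19 of the 37 members and is not particular to the group. It held for 4 of the 5 surface receptors and ligands and 4 of the 6 adhesion, junction and secreted proteins. Casp1, Dclk1 and Capn3, a protease, a kinase and a calpain, were placed in other groups. For Capn3 the lower deficient level was under the higher wild-type level (-1.52), so the trait is not one of all enzymes among the members. Dhrs3, a retinaldehyde reductase that limits retinoic acid formation, was at 6.55 in STAT3-deficient and 4.36 in STAT3 wild-type cells, and at 7.38 in STAT5-deficient and 4.55 in STAT5 wild-type cells. Idi2, an isomerase of isoprenoid synthesis, was at 10.45 in STAT3-deficient against 5.25 in STAT3 wild-type cells. It was at 6.46 in STAT5-deficient against 4.79 in STAT5 wild-type cells, barely above the background level. Msrb3, a methionine sulfoxide reductase, differed by 2.26 and 1.24, and Sgms1, a sphingomyelin synthase, by 1.74 and 1.12. Ankrd33b, given no role here, differed by 1.85 and 1.32.

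The rule compares each deficient array with its own control, so it does not fix how arrays of different pairs stand to each other. Both deficient arrays exceeded both wild-type arrays for 33 of the 37 members, against 1013 genes (8.14%) of all those compared. They did so by at least 2-fold for 19 members. Any gene that does so meets the rule, and the 26 such genes (0.209%) are those 19 and 7 of the genes left out by name, so they are no background for the members. The count of 33 also follows in part from the rule, and nothing is read from either. The 4 exceptions were Nrgn (-0.06), Ifi209 (-0.58), Nrn1 (-0.95) and Capn3 (-1.52), the values being the lower deficient minus the higher wild-type level.

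The wild types of the pairs differ in their floxed allele and in IL-2 treatment. STAT5 wild-type cells, given IL-2, differed from STAT3 wild-type cells, with IL-2 blocked, by a median of -0.25 over the members and 0.06 over all genes. The members' median was -0.06 with arrays centred on their medians and -0.10 with loess centring. Centring on medians moves all genes by the same amount, and the median over all genes was not recomputed. These values therefore cannot decide whether the members differ from all genes, and nothing is read from them. Between those arrays, 10 members were at least 2-fold lower in STAT5 wild-type cells and 1 was higher, against 2.95% and 2.35% of all genes. The lower members were Capn3 (-2.93), Nrn1 (-1.97), Serpinb9 (-1.78), Samd9l (-1.76), Trim12a (-1.64), Ifi209 (-1.61), Ghrh (-1.59), Nrgn (-1.32), Cd96 (-1.12) and Igfbp7 (-1.04). For all of these but Nrn1, Cd96 and Igfbp7 the STAT5 wild-type value lay under the background level, so the size of the difference is uncertain. The remaining 26 members differed by less than 2-fold between wild types.

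STAT5-deficient cells differed from STAT3-deficient cells by a median of -0.84 over the members, against 0.33 over all genes. At least 2-fold lower in STAT5-deficient cells were 15 members, against 3.08% of all genes, and 3 were higher, against 8.16%. The 3 higher were Casp1 (1.09), Dclk1 (1.03) and Kcnk10 (1.002), and the widest gaps in the other direction were Lad1 (-4.17), Idi2 (-3.99) and Nrn1 (-3.27). The highest of the 4 arrays was the STAT3-deficient one for 29 members and the STAT5-deficient one for 8, a count not made over all genes. These comparisons use the same 4 arrays as the rule and are a description.

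Differences of the pairs were within 2-fold of each other for 26 members. The STAT3 difference was larger by 1 or more for 9: Lad1, Idi2, Penk, Cd70, Mpzl2, Shtn1, Nrn1, Sema4c and Msrb3. For Casp1 and Dclk1 the STAT5 difference was larger by that much. Gaps of that size were not counted over all genes, so nothing is read from the split.

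Further probe sets, which the rule did not use but which were read from the same arrays, were present for 18 of the members, 34 in all. Of these, 25 probe sets of 13 members were above the background level on at least 1 array. Both differences were at least 1 for 11 of the 25, which belong to 7 members, against 0.277% of the 9379 further probe sets of all genes above that level. Since a gene's probe sets measure the same RNA on the same arrays, this says how far the measurement of a gene depends on the probe set, and is not a replicate. Over all 34, whatever their level, both differences were above 0 for 28, against 18.5% of the 16764 further probe sets of all genes. Since many passed the level filter through their deficient arrays, counts over the 25 are a description.

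Vcam1 had 1 further probe set with larger differences (4.17 and 3.11) and 1 with smaller ones (0.58 and 0.74). Both further probe sets of Mpzl2 passed, at 2.65 and 1.44 and at 3.40 and 2.50. The further probe set of Fcrl1 differed by 2.43 and 1.79, that of Zfpm1 by 1.57 and 1.30, and the 1 of Dsp above background by 1.58 and 1.45. In Dclk1, 4 of the 6 above background passed, with STAT3 differences from 1.21 to 1.29 and STAT5 differences from 2.35 to 3.06. The others above background differed by 0.49 and 1.57 and by 0.12 and 2.49. Dclk1 alone thus gave 4 of the 11 further probe sets that passed. A further probe set of Sgms1 passed at 1.18 and 1.14.

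The 6 probe sets that did not lie above 0 in both pairs belonged to 6 genes. Above the background level they were of Igfbp7 (-0.39 and 0.39), Sgms1 (-0.10 and -0.15) and Sla (1.76 and -0.11). Under it on all 4 arrays they were of Anxa1 (-1.28 and 0.16), Msrb3 (1.32 and -0.34) and Trim12a (-0.42 and -0.66). The further probe set of Ifi209 differed by 1.33 without STAT3 and by 0.02 without STAT5, where both of its values (4.26 in STAT5-deficient and 4.24 in STAT5 wild-type cells) lay under the background level. With a gene's probe sets averaged, 28 members remained, and Ankrd33b, Anxa1, Dclk1, Ifi209, Igfbp7, Msrb3, Sgms1, Sla and Trim12a fell short. Whether these probe sets detect other transcript forms was not tested. For 19 members there was 1 probe set only, among them Cd70, Lad1, Penk, Casp1, Pdcd1 and Cd96.

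**Figure D3:**
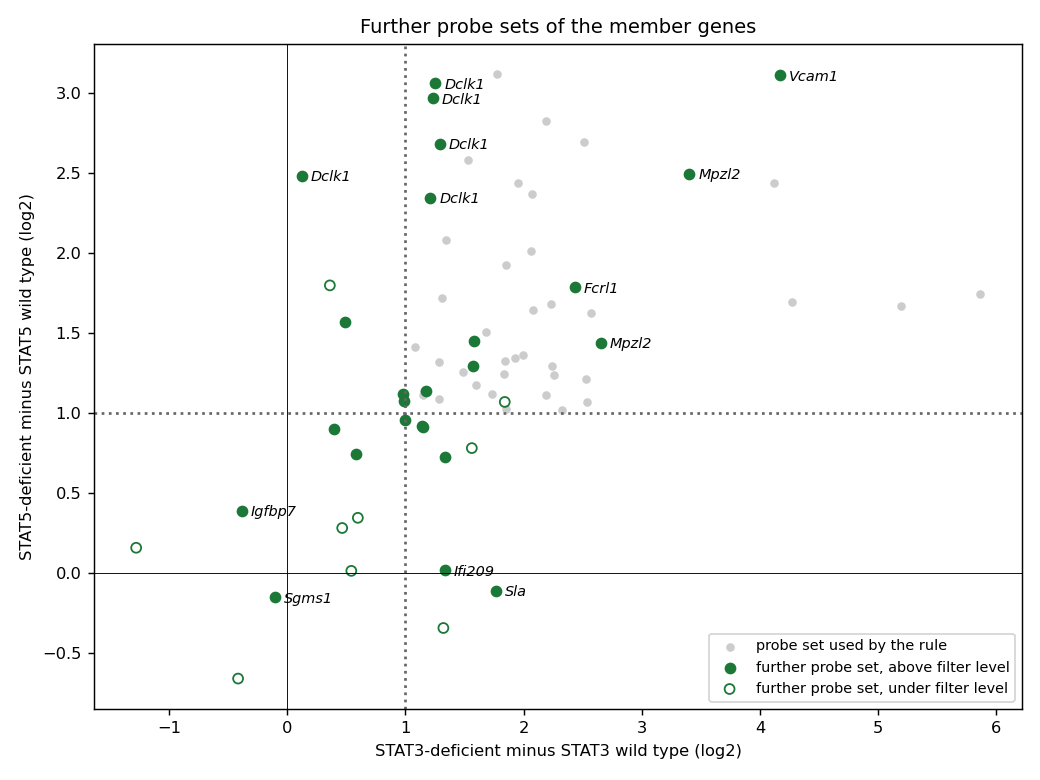
Differences (log2) of further probe sets of the members, with the STAT3 pair on the x axis and the STAT5 pair on the y axis. Filled green points are above the filter level on at least 1 array, open green points are not, grey points are the probe sets the rule used, and dotted lines mark 2-fold. Of the 25 filled points 11 lie past both lines, and of all 34 green points 28 lie above 0 in both pairs.

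In the gene order of RefSeq (GRCm38.p6, used for order only) the 37 members lay on 18 chromosomes, 6 of them on chromosome 1. That is 16.2% of the members, against 5.58% of the genes compared. Lad1, Cacna1s and Gpr25 lie near each other there, with 5 protein-coding genes between Lad1 and Cacna1s and 3 between Cacna1s and Gpr25. Both immediate neighbours of Lad1 were at least 2-fold higher in the STAT3 pair and not in the STAT5 pair, a contrast that was not tested. Tnni1, a troponin of slow skeletal muscle, differed by 1.90 without STAT3 and 0.28 without STAT5, and Tnnt2, cardiac troponin T, by 3.25 and -0.25, with both STAT5 pair values of Tnnt2 under the background level. The genes measured between Cacna1s and Gpr25 (Kif21b, Mroh3 and Inava) differed by less than 2-fold in both pairs, as did Tmem9 and Pkp1 between Lad1 and Cacna1s.

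**Figure D4:**
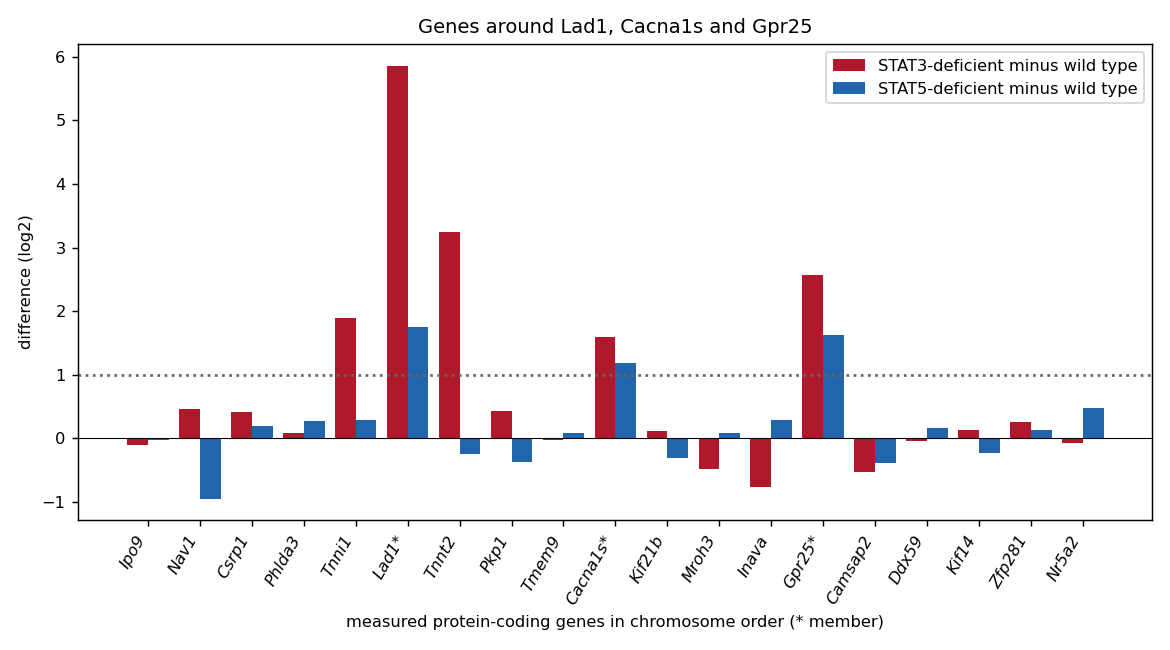
Differences (log2) in the STAT3 pair (red bars) and STAT5 pair (blue bars) for the measured protein-coding genes around Lad1, Cacna1s and Gpr25, in chromosome order and not to distance. Asterisks mark the members and the dotted line 2-fold. Lad1, Cacna1s and Gpr25 pass the line in both pairs, and Tnni1 (1.90) and Tnnt2 (3.25) in the STAT3 pair.

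Dsp and Nrn1 lie on chromosome 13 with 6 protein-coding genes between them. Ifi209 has 3 protein-coding genes between itself and Mndal, another Ifi200 family gene, which was left out by name and differed by 5.25 and 3.63. Whether probes of such closely related family members share targets was not tested, and Ifi209 and Trim12a are reported as uncertain.

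Genes of the helper fates were counted as lists beside the members. Of all genes compared, 2.85% were at least 2-fold higher and 7.23% lower without STAT3, and 1.86% were higher and 1.74% lower without STAT5. Of 12 compared Th1 genes, 8 were higher and 1 lower without STAT3 and 4 higher and 0 lower without STAT5 (medians 1.52 and 0.31). The 2 higher in both were Tbx21 and Il18rap, which were left out by name. Of 7 Th2 genes, 3 were higher and 3 lower without STAT3, and 1 was higher and 1 lower without STAT5. Gata3, also left out by name, was the 1 higher in both. Of 11 Th17 genes, 0 were higher and 9 lower without STAT3, and 2 were higher and 0 lower without STAT5. Of 14 regulatory T cell genes, 5 were higher and 1 lower without STAT3, and 0 were higher and 4 lower without STAT5. None of the Th17 and regulatory T cell genes compared was at least 2-fold higher in both pairs. Of 15 apoptosis regulators, 3 were higher and 1 lower without STAT3, 2 were higher and 1 lower without STAT5, and Casp1 was the 1 higher in both.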

How the data were processed

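Total RNA of 4 cultures was biotin-labelled and hybridised to 1 array each. The deposited values are log2 expression per probe set, made with Affymetrix Power Tools per the submitters' processing notes; its version, algorithm and background correction are not stated in the sources used here. Base 2 was checked by raising 2 to the power of the values. Between levels 8 and 9, and between 6 and 7, neighbouring distinct values were then a median of 1.00 apart on each array. Between levels 4 and 5 the median step was 0.70 (STAT3-deficient), 0.76 (STAT3 wild type), 0.65 (STAT5-deficient) and 0.69 (STAT5 wild type). Base 2 is thus not shown for the lowest levels, where some wild-type values of members lie.

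Of 45101 probe sets, 34958 name 1 gene in the platform annotation, 932 several and 9211 none; the last 2 kinds were left out. A gene's value is that of its probe set with the highest mean over the 4 arrays. Of 18194 genes, 12440 with a highest value above 6.20 (percentile 50) were compared. Differences are deficient minus wild type. With 1 array per group no test was possible and calls are at 2-fold. Members, lists and roles were chosen with earlier results of these data known.

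Values on all arrays are given for the 14 members with the highest smaller difference, members on a list, those at the threshold and a few others chosen after their values were seen. Alternatives were averaged probe sets, leaving out probe sets marked _x_ or _s_, array and loess centring, other filters and thresholds, and a floor. Python 3.11.15, pandas 2.3.3 and statsmodels 0.14.6 were used. All 37 members matched RefSeq genes by Entrez identifier.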

Additional observations from a re-analysis of the deposited data

How the results depend on the processing

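No paired analysis was possible because each group has 1 array and the labels give no replicate numbers, and for the same reason no array could be left out. The number of members, 37, was 28 with a gene's probe sets averaged and 37 without probe sets marked as matching several transcripts. It was 47 with arrays centred on their medians and 46 with loess centring, both of which held 35 of the 37 and lost Ifi209 and Nrn1. Averaging lost Ankrd33b, Anxa1, Dclk1, Ifi209, Igfbp7, Msrb3, Sgms1, Sla and Trim12a. In these 4 alternatives together, 27 members stayed past both thresholds. The number was 38 with no filter, 25 with a filter at percentile 75 (8.29), 116 at 1.5-fold and 14 at 3-fold. Raising values under 6.20 to that level, an alternative chosen after seeing the data, left 24, without Dhrs3, Idi2, Samd9l and others whose lower values lie under it. Both deficient arrays exceeded both wild types for between 31 and 34 members in every alternative run. The median difference between wild types over the members lay between -0.25 and -0.06, and that between deficient arrays between -1.05 and -0.78. Of 296 single differences recomputed in the first 4 alternatives, 0 changed sign and 16 fell under 1.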

Other observations

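Centring the arrays on their medians brought in 12 genes, as differences of the STAT3 pair rose. The STAT3-deficient array had the lowest median (6.10) and the STAT3 wild-type array the highest (6.34). Among the 12 genes were Slfn1 and Slfn2, Schlafen genes of T cell quiescence, Psmb10, a subunit of the immunoproteasome, and Ifitm3, an interferon-induced restriction factor. These were named after their values were seen. At 1.5-fold as deposited, 116 genes passed both thresholds, apart from those left out by name. From these, 3 were picked after their values were seen, and no theme is read from them. They were Tox, a regulator of T cell exhaustion (0.94 and 1.05), Nr4a1, an early response gene of the T cell receptor (0.66 and 0.61), and Dnmt3a, a DNA methyltransferase. On a list of 15 such early response genes, 4 were at least 2-fold higher and 2 lower without STAT3. Without STAT5, 3 were higher and 0 lower, and 0 were higher in both.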
